A study of Mus musculus with 5 samples.

Results

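The axonemal dynein heavy chains are the motor subunits that bend motile cilia. They were followed here on 5 Affymetrix arrays of GFP+ cells, 1 biological replicate each, sorted from lungs of E17.5 embryos from matings of FOXJ1-GFP mice with the outbred ICR strain. GFP is driven by the FOXJ1 promoter in this reporter line, and the labels call the sorted cells differentiating ciliated cells. Every value is thus a level within 1 group. The earlier progenitors that the study compared with these cells are not analysed here, and no change over development is given. Members were all probe sets that the platform's annotation assigns to 1 gene only, that gene being Dnah1, Dnah2, Dnah5, Dnah6, Dnah7a, Dnah8, Dnah9, Dnah11, Dnah12 or Dnah17. This gave 14 probe sets for 10 of the 18193 genes with a probe set of their own, with 2 probe sets for each of Dnah1, Dnah2, Dnah8 and Dnah9 and 1 for each of the other 6. Dnah3, Dnah10 and Dnah14 are not analysed here, and Dnah7b and Dnah7c share a probe set.

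An axonemal dynein heavy chain carries a ring of ATPase modules, a stalk that grips the neighbouring microtubule and a tail that anchors it on its own doublet. Heavy chains sit in outer arms, which set beat frequency, and in inner arms, which shape the waveform. Dnah5, Dnah9 and Dnah11 are the outer arm heavy chains of airway cilia, with Dnah11 in the proximal and Dnah9 in the distal part. Dnah8 and Dnah17 are the related outer arm chains best known from the sperm tail. Dnah2 belongs to the inner arm that carries a pair of heavy chains. Dnah1, Dnah6, Dnah7a and Dnah12 are chains of the inner arms with a single head. RFX factors and FOXJ1 are known regulators of genes for motile cilia, and RFX factors bind a palindromic sequence called the X-box.

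Promoter sequences of 3 members are shown because they bracket the measurements that follow: Dnah7a holds an X-box palindrome, Dnah5 varied most between arrays and Dnah17 was not detected above background. They come from RefSeq on GRCm38.p6 and run from 250 bases before to 50 after the start of an annotated transcript, read 5′ to 3′ on the gene's strand. Such sequences of 9 members were used. Capitals mark the X-box palindrome GTTGCNNNGCAAC, its arm GTTGC on either strand (GCAAC on the other) and the forkhead core TGTTTAC. The spacing of the palindrome was chosen after the sequences had been seen.
Dnah7a, chr1:53706735-53707034, minus strand: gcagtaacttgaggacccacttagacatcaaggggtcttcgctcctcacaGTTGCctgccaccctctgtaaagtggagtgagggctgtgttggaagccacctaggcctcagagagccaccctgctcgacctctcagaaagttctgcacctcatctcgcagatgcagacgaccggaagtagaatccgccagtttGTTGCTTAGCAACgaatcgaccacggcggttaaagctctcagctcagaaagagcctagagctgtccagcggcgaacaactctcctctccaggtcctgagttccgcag
Dnah5, chr15:28203516-28203815, plus strand: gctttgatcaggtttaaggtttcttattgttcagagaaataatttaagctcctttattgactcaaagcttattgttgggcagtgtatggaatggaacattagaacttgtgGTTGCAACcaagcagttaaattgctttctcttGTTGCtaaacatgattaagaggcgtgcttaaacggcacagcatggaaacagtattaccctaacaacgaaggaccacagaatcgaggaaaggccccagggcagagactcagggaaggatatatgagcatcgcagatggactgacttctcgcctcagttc
Dnah17, chr11:118129170-118129469, minus strand: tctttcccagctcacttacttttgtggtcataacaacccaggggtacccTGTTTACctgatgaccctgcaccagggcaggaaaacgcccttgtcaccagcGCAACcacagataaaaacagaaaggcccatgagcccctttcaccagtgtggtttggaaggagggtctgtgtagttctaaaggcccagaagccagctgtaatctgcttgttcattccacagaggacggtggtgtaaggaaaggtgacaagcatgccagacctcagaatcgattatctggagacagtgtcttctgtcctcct

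The palindrome GTTGCNNNGCAAC was found in 1 of these 9 promoters, that of Dnah7a, beginning 57 bases before the start. Of all 32851 promoter windows of this length, 74 (0.225%) held it. The palindrome with 4 bases between its arms, GTTGCNNNNGCAAC, was in none of the 9 and in 0.174% of all windows. The single arm, which also lies within the palindrome, was in 7 of the 9 (Dnah11 and Dnah8 had none) and in 35.2% of all windows. The forkhead core was in 1 member promoter, that of Dnah17, and in 3.65% of all windows. The same X-box lies in the promoters of Dnah7b and Dnah7c, the neighbours of Dnah7a in the family, and of the 8 bases on each side of it in Dnah7a, 16 in all, 16 are the same in Dnah7b and 15 in Dnah7c. These short windows show the palindrome in capitals.
Dnah7a: gccagtttGTTGCTTAGCAACgaatcgac
Dnah7b: gccagtttGTTGCTTAGCAACgaatcgac
Dnah7c: tccagtttGTTGCTTAGCAACgaatcgac

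Of the 10 heavy chain genes, 9 had a mean above the background level and Dnah17 did not. Values are the deposited log2 signals. The background level was set at 7.09, where 95% of 154 genes not to be expected in ciliated cells of the lung had a lower mean. They are 77 olfactory, vomeronasal and taste receptor genes and 77 genes restricted to other tissues, and 6 of the 154 were themselves called above it. A gene was represented by its probe set with the highest mean and called at an adjusted p under 0.05 in limma's one-sided test over all probe sets. By this rule 64.8% of all genes were above background. The 9 of 10 genes had adjusted p-values from 4.73e-11 for Dnah6 to 5.16e-06 for Dnah5 (limma). As a description, the median over the 10 genes lay 4.76 above the background level, beside 1.99 over all genes, each gene taken by its brightest probe set. Such a distance was not particular to the heavy chains. Marker lists of other cell types lay at 5.05 (alveolar type 2), 5.24 (alveolar type 1) and 5.06 (club and goblet). The remaining marker lists of other cell types lay lower, from 3.93 for endothelial cells to -1.89 for red blood cells. With each gene taken as the mean of its probe sets, the distance from background was 1.20 for Dnah2 in place of 5.93, 1.51 for Dnah8 in place of 4.64 and 3.57 for Dnah9 in place of 5.62. The same 9 genes passed the same test against a level of 5 on the log2 scale, as 81.3% of all genes did. The level of 5 was taken from the study's cut-off. That cut-off was set together with a fold change, on an average expression from the comparison with progenitors. The mean over these 5 arrays is another quantity, so the count is not that of the study's rule. Counted by probe set, 11 of 14 were called above background, beside 56.3% of all probe sets with 1 gene. Against 5, 12 of 14 were called, beside 78.4%. In a bulk sample, fewer cells of a type and less RNA per cell cannot be told apart. A probe set's brightness also depends on its own sequence, so levels of different genes are not ranked.

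**Figure D1:**
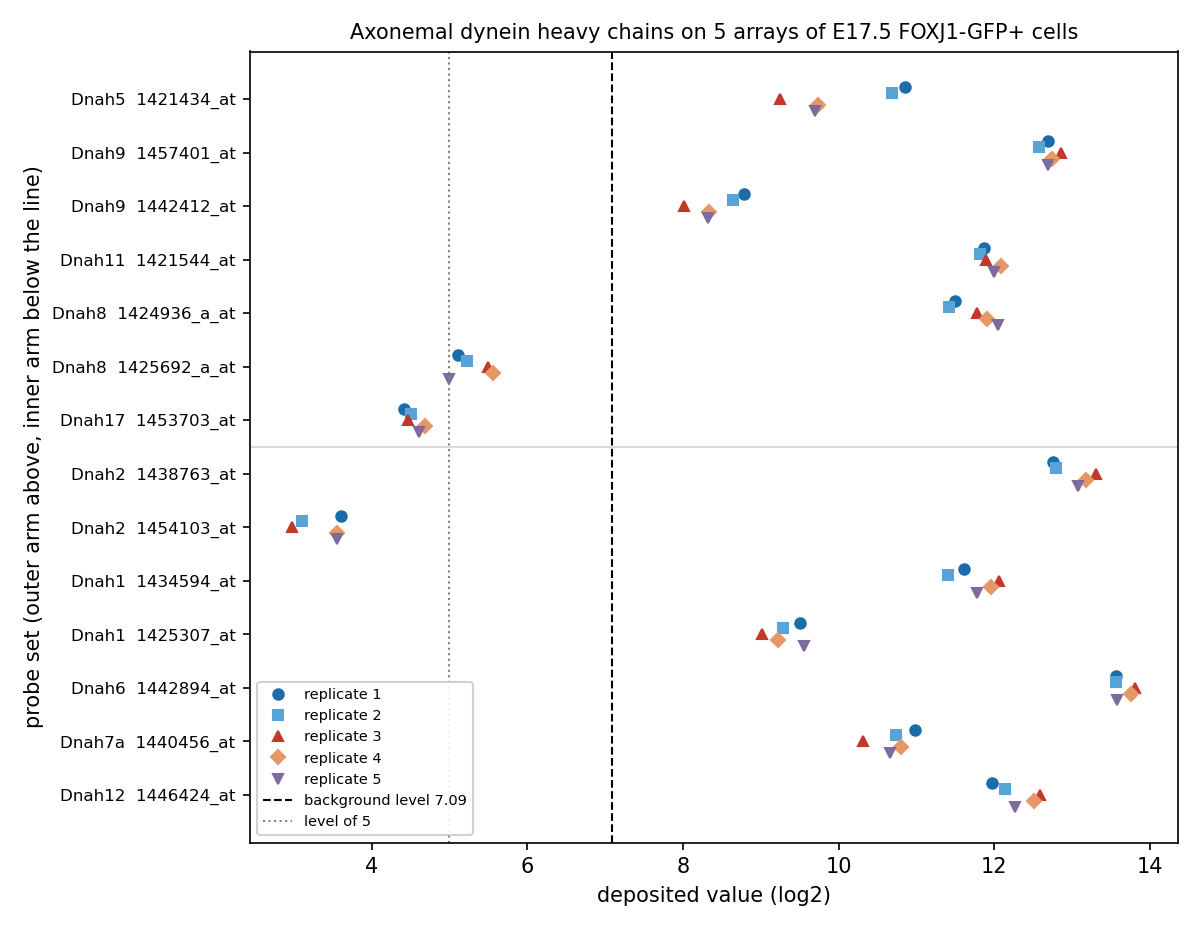
Deposited log2 value of each of the 14 heavy chain probe sets (vertical axis) on each of 5 arrays (symbols). The dashed line is the background level of 7.09 and the dotted line the level of 5. A probe set of Dnah2, one of Dnah8 and the only one of Dnah17 lie left of the background level on all 5 arrays.

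Among the outer arm chains of airway cilia, Dnah5 varied most between arrays, Dnah11 varied little, and the 2 probe sets of Dnah9 differed in their spread. The higher probe set of Dnah9 (1457401_at) read 12.69, 12.57, 12.86, 12.74 and 12.69 in replicates 1 to 5, a mean of 12.71 ± 0.11 (SD, n = 5 arrays, as for all levels below). Dnah11 (1421544_at), which is also a left-right asymmetry gene of the mouse, read 11.86, 11.81, 11.89, 12.09 and 12.00, a mean of 11.93 ± 0.11. On these 2 probe sets no array lay more than 0.16 from the mean. The other probe set of Dnah9 (1442412_at) had an SD of 0.30 and a highest value 1.71-fold the lowest, with replicates 1 and 2 high and replicate 3 the lowest. Dnah5 (1421434_at) read 10.85, 10.69, 9.24, 9.74 and 9.69, a mean of 10.04 ± 0.69. Here too replicates 1 and 2 were high, replicate 3 was low, and replicates 4 and 5 lay between them. The highest value was 3.05-fold the lowest. All 5 values of each of these genes were above the background level.

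The outer arm chains best known from sperm gave unlike readings. Dnah8 is a close relative of Dnah5, and its higher probe set (1424936_a_at) read 11.49, 11.42, 11.78, 11.90 and 12.05, a mean of 11.73 ± 0.27 (adjusted p = 1.45e-09, limma). Here replicates 1 and 2 were the low ones and replicate 5 the highest. Its other probe set (1425692_a_at) read 5.11, 5.22, 5.49, 5.56 and 5.00, a mean of 5.28 ± 0.24, below the background level on every array. It passed the test against 5 (adjusted p = 0.017, limma) but not that against background (adjusted p = 1, limma). Dnah17 (1453703_at), the counterpart of Dnah9 in the sperm tail, read 4.42, 4.51, 4.47, 4.69 and 4.61, a mean of 4.54 ± 0.11. No array reached 5, and 63 of the 154 background genes (40.9%) had a higher mean than Dnah17. One probe set cannot show that a transcript is absent, and Dnah17 had no other on this array.

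Dnah2 and the chains of the single-headed inner arms were above background as well. The higher probe set of Dnah2 (1438763_at) read 12.75, 12.79, 13.31, 13.18 and 13.07, a mean of 13.02 ± 0.25. Its other probe set (1454103_at) read 3.61, 3.11, 2.98, 3.56 and 3.55, a mean of 3.36 ± 0.30, which did not pass either test. The 2 probe sets of Dnah2 thus disagree on whether the gene is above background, as the 2 of Dnah8 do. Dnah6 (1442894_at) read 13.56, 13.56, 13.81, 13.76 and 13.58, a mean of 13.65 ± 0.12. Dnah12 (1446424_at) read 11.97, 12.13, 12.58, 12.51 and 12.26, a mean of 12.29 ± 0.26. On Dnah6, Dnah12 and the higher probe set of Dnah2, replicates 3 and 4 were the highest arrays. Dnah7a (1440456_at) read 10.98, 10.74, 10.31, 10.80 and 10.66, a mean of 10.70 ± 0.25, with replicate 3 the lowest. The probe set shared by Dnah7b and Dnah7c (1438466_at) read 12.62, 12.67, 12.95, 12.89 and 12.73, a mean of 12.77 ± 0.14, with replicate 3 the highest. It cannot be divided between its genes, and it is not counted among the members. Dnah7a, Dnah7b and Dnah7c are close copies, so the reading of Dnah7a is uncertain to the extent that its probes also bind the others, which was not tested.

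Dnah1 and Dnah9 each had 2 probe sets above background, and in both genes these followed different orders over the arrays. For Dnah1, 1434594_at read 11.61, 11.41, 12.06, 11.96 and 11.77, a mean of 11.76 ± 0.26, and 1425307_at read 9.50, 9.29, 9.02, 9.22 and 9.55, a mean of 9.32 ± 0.22. Replicate 3 was the highest array on the first and the lowest on the second. For Dnah9, 1442412_at read 8.79, 8.64, 8.01, 8.34 and 8.32, a mean of 8.42 ± 0.30, so that replicate 3 was the lowest array there and the highest on 1457401_at. The probe sets of Dnah9 deviated from their means in the same direction on 1 of 5 arrays and those of Dnah1 on 2 of 5. Among the 4914 genes with 2 or more probe sets above background, 12.0% had their 2 brightest probe sets deviate the same way on at most 1 array, and 16.4% on 2. The annotation used here does not place the probe sets along the transcripts.

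Replicate 3 stood at an end of the order for most of the heavy chain probe sets, at the top for some and at the bottom for others. It was the highest array for 5 of the 11 probe sets above background, those of Dnah1, Dnah2, Dnah6, Dnah9 and Dnah12 with the higher mean. It was the lowest for 4, those of Dnah5 and Dnah7a and the lower ones of Dnah1 and Dnah9. Among all 19658 single-gene probe sets above background, replicate 3 was the highest for 19.8% and the lowest for 34.2%. Replicate 2 was the lowest array for 5 of the 11, beside 16.9% of all. These orders are a description with no test, since each array gives 1 value per probe set. With each array centred on its median, replicate 3 was the highest for 4 of the 11 and the lowest for 4, and after quantile normalisation for 5 and 4.

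**Figure D2:**
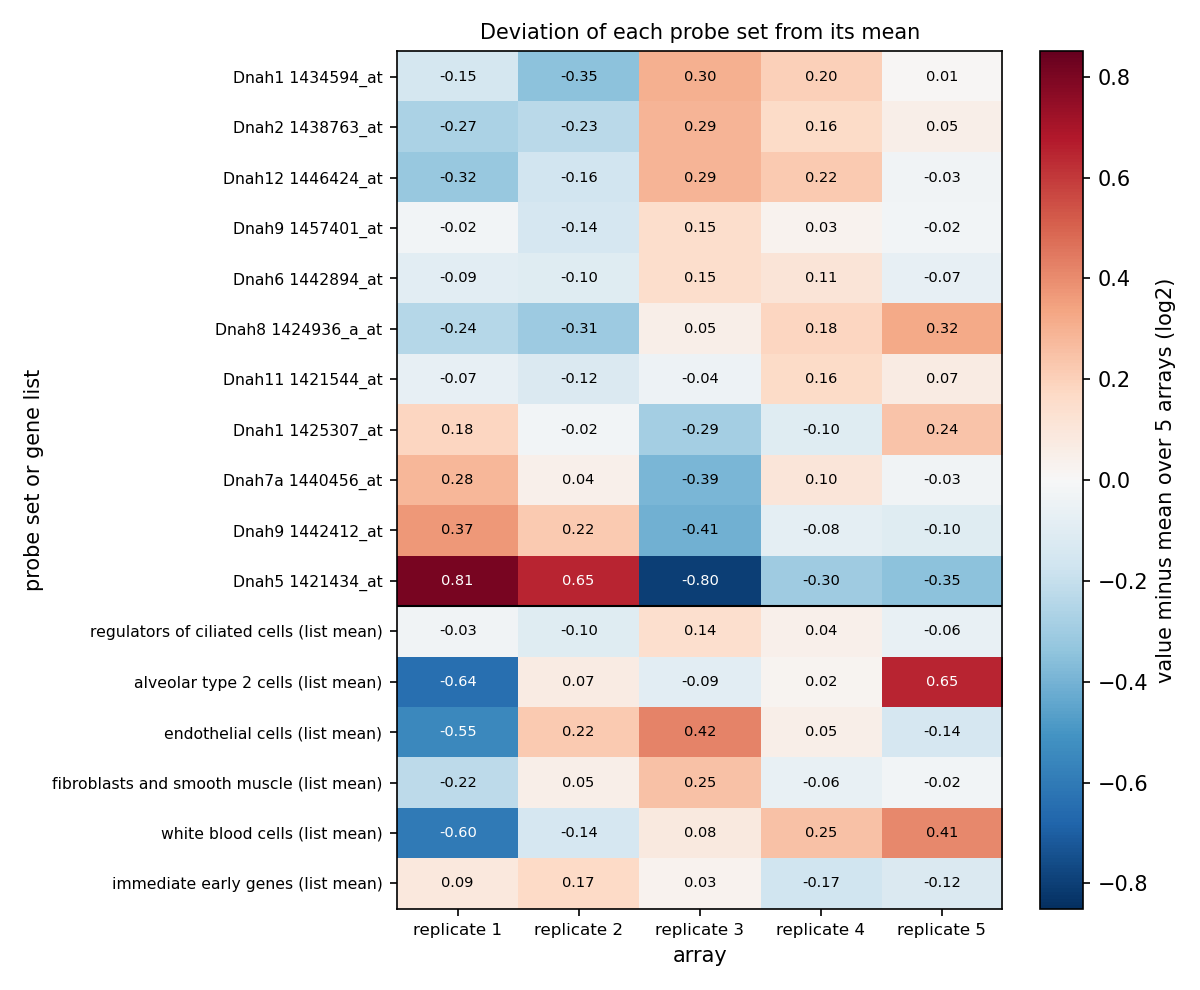
Value minus the mean over 5 arrays (colour and printed number, log2) for the 11 heavy chain probe sets above background, sorted by replicate 3, and below the black line the mean of the same quantity over the above-background genes of 6 marker lists. Dnah5 runs from 0.81 in replicate 1 to -0.80 in replicate 3, and Dnah1 1434594_at from -0.35 in replicate 2 to 0.30 in replicate 3.

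Marker genes of other cell types also varied between the arrays, which does not measure how many such cells were in the sorts. Averaged over genes above background, the endothelial list (12 of 12 genes above background) ran from -0.55 in replicate 1 to 0.42 in replicate 3, and the list of fibroblasts and smooth muscle (11 of 12) from -0.22 to 0.25 on the same arrays. The heavy chains moved both ways on these arrays. Dnah5 (0.81 and -0.80), Dnah7a and the lower probe sets of Dnah1 and Dnah9 fell from replicate 1 to replicate 3. Dnah6, Dnah12 (-0.32 and 0.29) and the higher probe sets of Dnah1, Dnah2, Dnah8 and Dnah9 rose, as these lists did. Dnah11 changed little (-0.07 and -0.04). The alveolar type 2 list (11 of 11 measured) ran from -0.64 in replicate 1 to 0.65 in replicate 5, and the list of white blood cells (9 of 12) from -0.60 to 0.41 on those arrays. Regulators of ciliated cells (8 of 8, among them Foxj1 at 12.82 ± 0.08, Myb at 13.77 ± 0.06, Rfx2 at 11.91 ± 0.20 and Rfx3 at 12.20 ± 0.07) stayed between -0.10 and 0.14, with replicate 3 the highest. The remaining lists had ranges of 0.30 for alveolar type 1 cells (10 of 10), 0.66 for club and goblet cells (8 of 10) and 0.33 for neuroendocrine cells (8 of 8 measured), and of the red blood cell list 1 of 7 measured genes passed. Immediate early genes (10 of 10), which respond to tissue handling, ran from -0.17 in replicate 4 to 0.17 in replicate 2. The 9 heavy chain genes above background, averaged in this way, ran from -0.08 to 0.09, a range of 0.17, in which opposite movements cancel. The part of these differences in the order of the heavy chain values was not tested.

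Taken by their brightest probe sets and not matched for level, 6 heavy chains varied more between arrays than most genes above background, and 3 varied less. The median SD of the 10 genes was 0.25, beside 0.17 over all genes, and that of the 9 above background was 0.25, beside 0.16 over all 11785 genes above background. Of these genes, 0.305% had a larger SD than Dnah5, 17.3% a larger one than Dnah8, 18.6% than Dnah1, 19.4% than Dnah12, 21.7% than Dnah7a and 21.8% than Dnah2. Dnah6, Dnah11 and Dnah9 lay in the other part of the range, with 67.5%, 71.1% and 74.4% of genes having a larger SD. The lower probe set of Dnah9 had an SD of 0.30. These shares are not matched for level, and SD fell with level. Over all genes above background its median was 0.22 for means of 7.09 to 9 and 0.17 for 9 to 11. It was 0.13 for 11 to 13 and 0.08 for 13 to 16. Dnah6, at a mean of 13.65, had an SD of 0.12, above the median at its level. Without replicate 3 the median SD of the 10 was 0.17, and when the probe sets of each gene were averaged it was 0.14. The medians over all genes under these settings were not computed, so the falls cannot be called particular to the heavy chains.

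**Figure D3:**
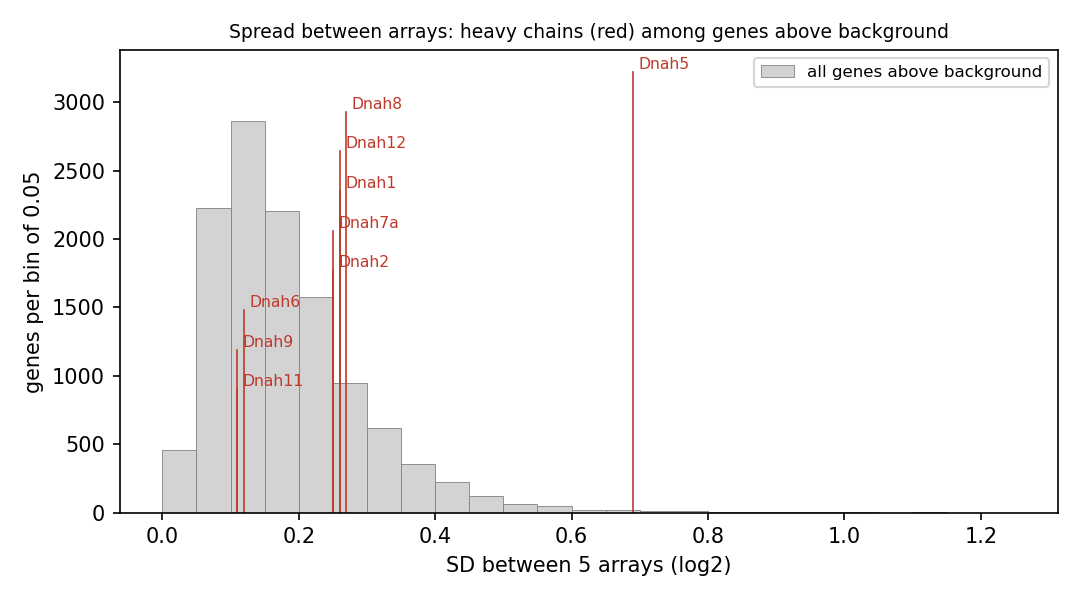
Histogram of the SD between 5 arrays (log2) over the 11785 genes above background (grey bars, bins of 0.05), with the 9 heavy chain genes above background as red lines whose heights only separate the names. Dnah5 at 0.69 stands apart from the other 8, which lie between 0.11 and 0.27.

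Among genes above background, those whose values followed Dnah5 most closely were Ttc39d, Ppp2r2b, a regulatory subunit of a protein phosphatase, and Gpr37, a G protein-coupled receptor. Likeness was the root mean square difference between values centred on their means over the 5 arrays, searched over 11784 genes. Ttc39d (difference 0.15) read 8.89, 8.59, 7.53, 8.03 and 7.84, Ppp2r2b (0.16) read 8.71, 8.41, 7.33, 7.88 and 7.75, and Gpr37 (0.19) read 9.07, 8.55, 7.48, 8.09 and 8.09. Replicates 1 and 2 were the highest and replicate 3 the lowest on each, as on Dnah5, which follows from choosing the nearest genes. This difference counts the size of the deviations, so genes that vary much less than Dnah5 cannot come near, whatever their order over the arrays. Only the highest-mean probe set of each gene was searched. The search therefore does not tell whether other dynein genes shared the order of Dnah5. Their own values show that some did and some did not. Tctex1d4 read 12.47, 12.33, 11.73, 12.04 and 12.03, and Gas8 read 12.18, 12.12, 11.69, 11.80 and 11.84. In both, replicates 1 and 2 were the highest and replicate 3 the lowest. Wdr63 read 12.78, 12.88, 13.32, 13.34 and 13.20, and Ccdc114 read 10.70, 10.74, 11.15, 11.22 and 11.02. In these, replicates 1 and 2 were the lowest. They are examples, with no test.

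Other dynein chains and proteins that work with dyneins were nearly all above background too. In 6 lists of them 51 of 55 measured genes were called, beside 64.8% of all genes. These lists include the cytoplasmic heavy chains Dync1h1 and Dync2h1, which are not partners of the axonemal ones. Of the list of outer arm intermediate and light chains, 10 of 11 were above background, among them Dnaic1 at 11.53 ± 0.06 and Dnaic2 at 9.44 ± 0.09. The exception was Nme8, a protein with a thioredoxin domain, at 4.69 ± 0.38. The list also holds Dynll1, Dynll2, Dynlrb1, Dynlt1f and Dynlt3, and was not limited to chains particular to the outer arm. All 9 measured genes of the list of inner arm intermediate and light chains were above background, with Wdr63 at 13.10 ± 0.26 and Wdr78 at 12.01 ± 0.11. Not all of these are particular to the inner arms: Wdr60 is an intermediate chain of cytoplasmic dynein-2, and the centrin Cetn2 is also a component of centrioles and basal bodies. Of the docking proteins, which fix outer arms on the doublet, 5 of 6 were, with Ccdc114 at 10.96 ± 0.24 and Armc4 at 12.38 ± 0.13, while Ccdc63, required in sperm tails, was at 4.84 ± 0.06.

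Of the assembly factors, which fold and join the arms in the cytoplasm, 15 of 16 were above background, with Dnaaf1 at 12.23 ± 0.14 and Dnaaf2 at 11.54 ± 0.23. Dnaaf6 was not, at 4.03 ± 0.27. Of the proteins that space the arms and link the doublets, 10 of 11 were, with Ccdc39 at 12.61 ± 0.17 and Ccdc40 at 12.95 ± 0.09, and Fbxl13 was not, at 5.67 ± 0.36. The cytoplasmic heavy chains Dync1h1, the motor of retrograde transport in the cell body, and Dync2h1, that of retrograde transport in cilia, were at 11.70 ± 0.10 and 11.85 ± 0.16. Among the 4 partners and the 1 heavy chain not above background, each had a single probe set of its own. A second probe set of Dync1h1 read 4.67 ± 0.22, so this gene too, like Dnah2 and Dnah8, had 1 probe set on each side of the background level.

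**Figure D4:**
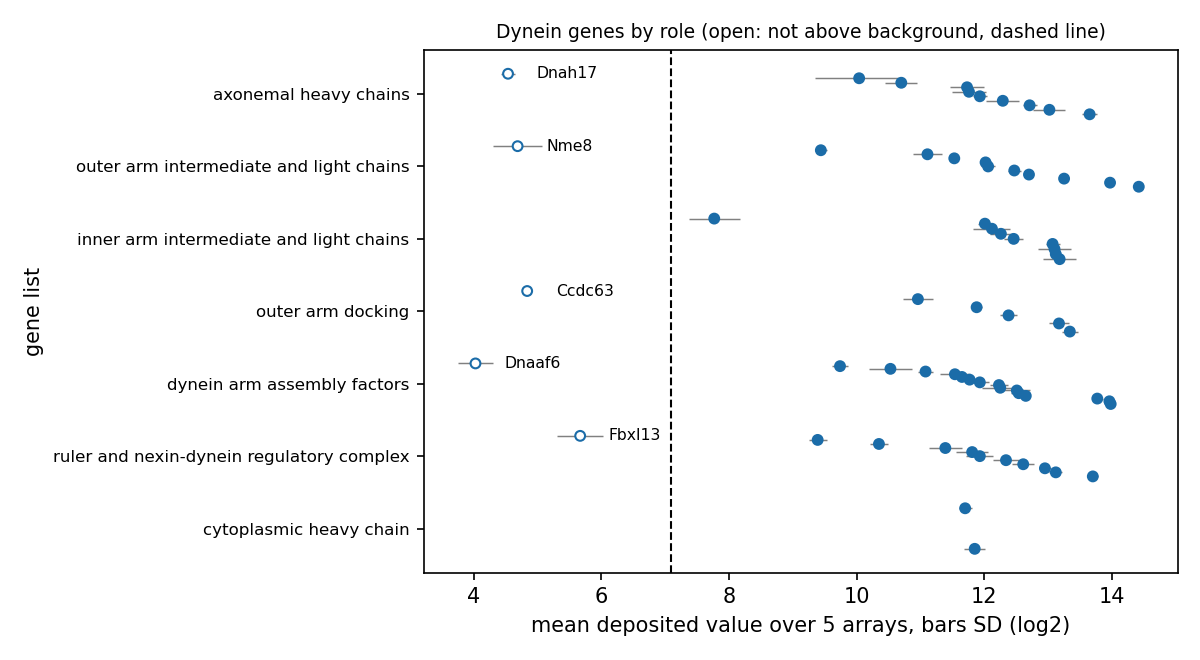
Mean log2 value over 5 arrays (points, bars SD) of the highest-mean probe set of each measured gene in 7 dynein lists. Filled points are above background and open points, named, are not; the dashed line is the background level of 7.09. Dnah17, Nme8, Ccdc63, Dnaaf6 and Fbxl13 are the 5 open points, between 4.03 and 5.67.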

How the data were processed

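RNA of 5 sorts was amplified, biotin-labelled and hybridised to Affymetrix mouse arrays, and analysed by the authors with Bioconductor in R. The deposited values are log2 signals, 1 per probe set and array, normalised between arrays by a method not given in the sources used here. Their scale was read from the values (2.37 to 15.24). Control probe sets (64) were left out, and 45037 were tested. The platform's annotation supplied the gene names, and the symbols of all 14 member probe sets matched the RefSeq table of GRCm38.p6 by Entrez identifier. Pearson's r between pairs of arrays, across probe sets, was 0.987 to 0.994, and array medians were 7.18 to 7.26.

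An intercept per probe set was fitted with lmFit and eBayes (limma 3.58.1, R 4.3.3), and the moderated one-sided test against each level was adjusted by Benjamini-Hochberg over all 45037. The promoter of 1 member is not reported here. Tables and plots used Python 3.11.15 with pandas 2.3.3. Named are all members, the first 2 genes of each dynein list and every gene of those lists not above background. Of the regulators of ciliated cells Foxj1, Myb, Rfx2 and Rfx3 are named and the rest are not. The 3 genes most like the most variable member are named as well. Values of Tctex1d1, Tctex1d4, Gas8 and shared probe sets were named after they were seen. Members and lists were chosen with earlier results of these data known. Alternatives were quantile normalisation, median centring, averaged or unsuffixed probe sets, other background levels, a cut-off of 6, a call on all arrays and leaving out each replicate. The labels call the arrays biological replicates but name no litters, so p-values measure only the spread between these 5 samples, and their number limits the precision.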

Additional observations from a re-analysis of the deposited data

How the results depend on the processing

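The count of heavy chain genes above background was 9 of 10 under every alternative run, with each replicate left out in turn as well, except that without probe sets whose names carry a suffix it was 8 of 9, since both probe sets of Dnah8 carry one. The background level moved from 5.43 with receptor genes alone to 8.84 at the 99th percentile, and the share of all genes above it from 77.4% to 49.9%. At the 99th percentile 10 of 14 probe sets were above background, since the mean of Dnah9 1442412_at lies below that level. The count above the level of 5 was 9 of 10 with each replicate left out, and 9 of 10 at a level of 6. Genes of the other dynein lists above background numbered 50 or 51 of 55, and 46 of 51 without suffixed probe sets; Tctex1d1, at 7.77 ± 0.40, lies nearest above the level. Fbxl13 lay 0.24 above the level with receptor genes alone as background (adjusted p = 0.0827, limma) and was not called. The median SD of the heavy chain genes ran from 0.17 to 0.26 with 1 replicate left out. No paired analysis was possible because there is 1 group of samples. None of the 14 member probe sets had an array set apart from the others by Dixon's test. That test looks for a single outlying array, so arrays that move together, as on Dnah5, would not be flagged.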
